A study of Mus musculus with 6 samples.

Results

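Thrombin receptors, tissue factor and the plasminogen activators were followed in the epithelium of mouse bile ducts (biliary epithelial cells). The set holds 8 genes: the protease-activated receptors F2r and F2rl1, tissue factor (F3), the clotting inhibitors Tfpi and Thbd, the plasminogen activators Plat and Plau, and the urokinase receptor Plaur. They were found by symbol among the 24404 genes of the deposited table of normalised read counts, and all 8 were present. They were chosen by function with the Klf5 LKO against control values of these same libraries already known, so their values in that comparison are given as a description, with no p-value. RNA was sequenced from 3 Klf5 LKO and 3 control libraries. Klf5 LKO mice had the genotype Alfp-CreTg/+;Klf5flox/flox and control mice Alfp-Cre+/+;Klf5flox/flox, so both groups carried floxed alleles of Klf5, a zinc-finger transcription factor, and differed in the Cre transgene. Both groups were adult C57BL/6 mice injured with DDC (diethoxycarbonyl-dihydrocollidine), a compound that damages bile ducts, for 1 week. Alfp combines albumin and alpha-fetoprotein control elements and is active in the common precursor of hepatocytes and bile duct cells, so the deletion is not limited to ducts, and an effect of Cre itself cannot be told apart from the loss of Klf5. The labels do not say whether each library was made from a different mouse, and the spread behind any p-value here is that between libraries, part of which may be technical.

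Thrombin and other trypsin-like proteases signal by cutting the outer end of protease-activated receptors, which exposes a built-in ligand. F2r codes for PAR1, the main thrombin receptor, and F2rl1 for PAR2, which is cut by trypsin, tryptase and tissue factor complexes but hardly by thrombin. Tissue factor starts clotting, and urokinase (Plau) and tissue plasminogen activator (Plat) turn plasminogen into plasmin, the protease that dissolves fibrin. Fibrin can be deposited in injured liver, and plasmin also acts on other matrix proteins and growth factors.

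RefSeq promoter windows on GRCm38.p6, from 250 bases before to 50 bases after the annotated start, were held for 4 of the 8 genes: F2r, F3, Plaur and Tfpi. Those of F2r, the gene with the widest gap between the groups, and of F3 and Plaur, the genes of the set with the highest levels per kilobase, are shown so that their short motifs can be compared. Capitals mark matches on either strand to CCNCNCCC, a pattern that Krüppel-like factors can bind, and to the GC box GGGCGG. They also mark TGANTCA, a loose form of the AP-1 pattern with any base in the middle. The F2r window lies at chr13:95618417-95618716 on the minus strand, the F3 window at chr3:121723287-121723586 on the plus strand and the Plaur window at chr7:24462233-24462532 on the plus strand.
F2r: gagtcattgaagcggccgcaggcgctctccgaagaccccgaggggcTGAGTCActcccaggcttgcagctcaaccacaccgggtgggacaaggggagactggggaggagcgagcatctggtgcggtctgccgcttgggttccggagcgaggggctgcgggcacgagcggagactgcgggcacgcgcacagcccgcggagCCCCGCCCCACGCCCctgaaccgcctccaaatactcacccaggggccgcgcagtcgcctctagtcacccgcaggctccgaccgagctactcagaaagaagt
F3: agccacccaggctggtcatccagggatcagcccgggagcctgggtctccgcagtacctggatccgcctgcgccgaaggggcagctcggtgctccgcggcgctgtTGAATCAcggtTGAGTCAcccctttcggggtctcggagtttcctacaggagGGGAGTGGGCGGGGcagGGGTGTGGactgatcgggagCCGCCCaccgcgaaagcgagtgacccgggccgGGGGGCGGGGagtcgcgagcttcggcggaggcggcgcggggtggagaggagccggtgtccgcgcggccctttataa
Plaur: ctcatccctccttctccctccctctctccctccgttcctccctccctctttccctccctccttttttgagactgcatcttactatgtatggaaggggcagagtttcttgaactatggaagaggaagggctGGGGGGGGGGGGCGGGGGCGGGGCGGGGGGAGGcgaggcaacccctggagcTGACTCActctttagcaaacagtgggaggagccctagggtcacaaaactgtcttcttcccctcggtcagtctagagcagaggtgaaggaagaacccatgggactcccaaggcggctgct
The F2r window held 2 matches to CCNCNCCC, 1 to GGGCGG and 1 to TGANTCA. The F3 window held 5, 3 and 2 matches to these patterns, and the Plaur window 11, 3 and 1, most of them overlapping in a G-rich stretch. Matches of the first 2 patterns overlap one another in all 3 windows. Counted from the start, TGANTCA began at position -204 in F2r, at -146 and -135 in F3, and at -69 in Plaur. The F3 match at -146 read TGAATCA, and the F3 match at -135 read TGAGTCA. Of all 32851 promoter windows, 49.5% held CCNCNCCC, 35.7% held GGGCGG and 7.8% held TGANTCA. The 3 windows had a GC content of 68.7%, 70.3% and 59.3%, against a median of 52.7% over all windows. The 2 windows of Tfpi, not shown, held 0 and 1 matches to CCNCNCCC, 1 each to GGGCGG and 0 to TGANTCA. Their GC content was 48% and 52.3%. A match describes letters only and is not a binding site.

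Between 17161087 and 24784167 reads were counted on genes in Klf5 LKO libraries and between 11726934 and 20066745 in control libraries. Klf5 was lower in every Klf5 LKO library, with 1117 ± 122 normalised counts in Klf5 LKO and 2130 ± 162 in control (SD, n = 3 each), counted per gene, so that the deleted exons are not seen on their own. The libraries carried the biliary keratins and Epcam at high levels: 14 biliary markers had summed levels from 600420 to 647370 normalised counts in Klf5 LKO and from 624100 to 766620 in control, the largest part of it Spp1. Within this list Sctr passed as higher in Klf5 LKO and Tspan8 as lower (limma adjusted p = 0.0275 and 0.0265). The keratins Krt7 and Krt19 and the marker Prom1 were lower without overlap but did not pass (adjusted p = 0.0720, 0.0988 and 0.289). The keratin Krt18 and Cftr were higher without overlap and did not pass either (adjusted p = 0.470 and 0.0935), and the groups overlapped for the keratin Krt8. The 9 leukocyte markers summed to between 407 and 2095 in Klf5 LKO and between 621 and 3712 in control. The mesothelial markers did not overlap, with sums from 1826 to 2045 in Klf5 LKO and from 2836 to 3028 in control, through Msln, which had 0, 103 and 30.9 in Klf5 LKO, against 1165, 1302 and 1258 in control (adjusted p = 0.0328). The part of these differences in the results that follow was not tested, apart from fits with marker lists as terms. These were the leukocyte list, and the endothelial and stellate lists together. A total of 13490 genes had a mean normalised count of 10 or more and were tested, of which 0.652% passed the threshold, an adjusted p under 0.05 in a limma fit over all of them, 0.163% as higher and 0.489% as lower in Klf5 LKO. The values of the groups did not overlap for 15.6% of genes, 7.72% as higher and 7.88% as lower in Klf5 LKO.

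F2r was higher in Klf5 LKO, with a mean of 2.28 times control. F2rl1 had a mean of 1.40 times control and did not pass the threshold, while the mean of F3 was 0.959 times control, that of Plat 0.904 times, that of Plaur 0.845 times and that of Plau 1.04 times. All 8 genes reached the mean of 10. In that fit 1 of the 8, F2r, passed as higher in Klf5 LKO and 0 passed as lower, and 3 of the 8 had groups that did not overlap (F2r and F2rl1 higher, Plat lower). Since the genes were picked with this comparison in view, nothing is read from these counts. The median log2 fold change was 0.02 over the 8 genes and -0.01 over all tested genes.

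**Figure D1:**
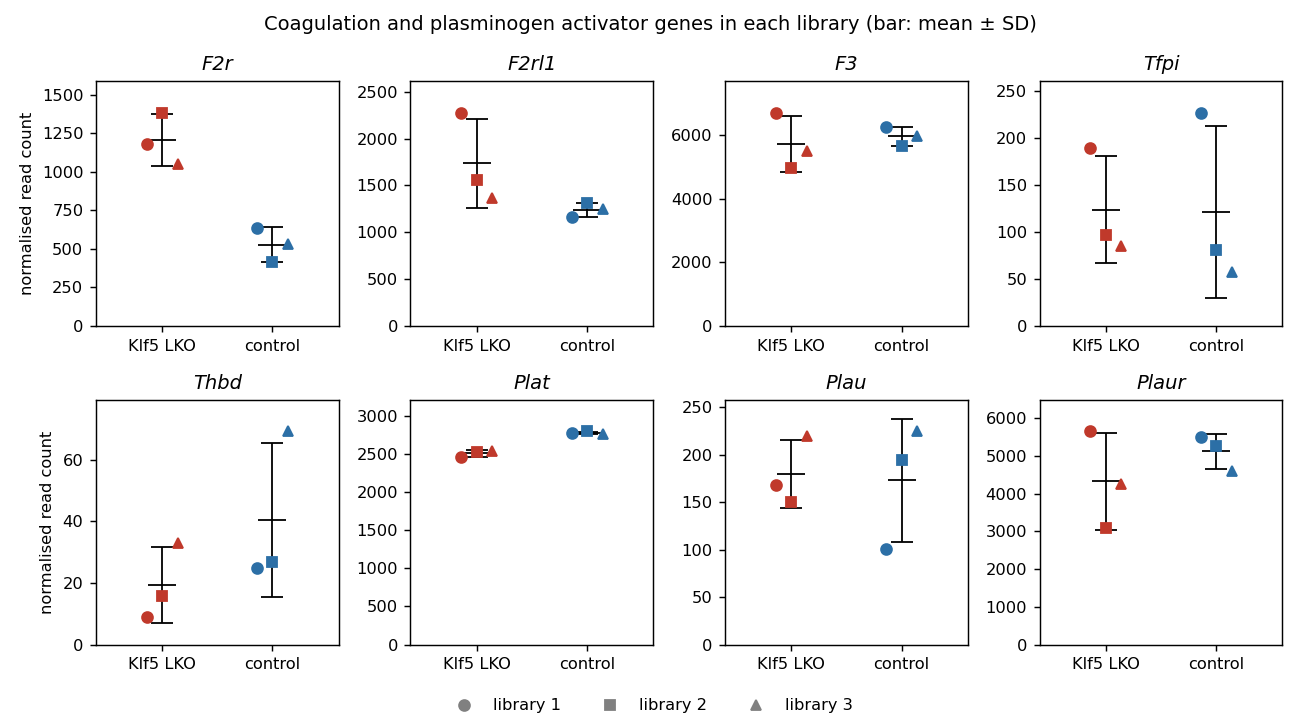
Normalised read counts of the 8 genes in each library (points, with shapes for library numbers; bars, mean ± SD, n = 3), Klf5 LKO left and control right, each y axis starting at 0. The Klf5 LKO libraries lie between 1047 and 1380 for F2r and the control libraries between 412 and 637, whereas the groups overlap for F3, Tfpi, Thbd, Plau and Plaur.

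F2r (chromosome 13, 95601803 to 95618487, minus strand, mm10) had 1182, 1380 and 1047 normalised counts in Klf5 LKO, against 637, 412 and 530 in control. The lowest Klf5 LKO library was above the highest control library. F2r averaged 1203 ± 168 in Klf5 LKO and 527 ± 112 in control (SD, n = 3 each). The log2 fold change was 1.20, with an SE of 0.19 and a 95% confidence interval from 0.79 to 1.62, or 2.30-fold. In the authors' deposited table it is 0.97 (SE 0.17), on a scale that appears shrunken towards 0. In both sources it was the largest difference of the 8 genes. F2r passed the threshold in all 12 other settings that kept all libraries, which reuse the same values and give no separate support. It no longer passed without Klf5 LKO 2, control 2 or control 3, where the log2 fold change was 1.10, 1.04 and 1.22.

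F2rl1 (chromosome 13, 95511732 to 95525227, minus strand) had 2273, 1559 and 1371 normalised counts in Klf5 LKO, against 1159, 1310 and 1246 in control. The groups did not overlap, but the gap between the lowest Klf5 LKO and the highest control library was small beside the spread within Klf5 LKO, where library 1 stood highest. F2rl1 averaged 1735 ± 476 in Klf5 LKO and 1238 ± 76.0 in control (SD, n = 3 each), with a log2 fold change of 0.45 (SE 0.18, interval 0.06 to 0.85, not adjusted for the number of genes). It was 0.24 without Klf5 LKO 1, and F2rl1 passed in 0 of the 19 fits run (all libraries, 12 other settings and each library left out).

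The ratio of F2r to F2rl1 within a library does not depend on the scaling between libraries. The ratios were 0.52, 0.89 and 0.76 in Klf5 LKO, against 0.55, 0.31 and 0.43 in control. These are ratios of counts, not corrected for gene length, and their ranges overlapped between the groups through Klf5 LKO 1 and control 1. In library 1 of both groups the ratio was alike, whereas Klf5 LKO 2 and 3 lay above all control libraries.

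The 2 receptor genes lie 76.6 kb apart on the same strand. On the other side of F2r, 8.7 kb away, lies Iqgap2, a scaffold protein of the actin cytoskeleton, with 663 ± 167 normalised counts in Klf5 LKO and 796 ± 91.8 in control (SD, n = 3 each; limma log2 fold change -0.29, adjusted p = 0.655). On the other side of F2rl1, 33.0 kb away, S100z had 0 reads in all 6 libraries. F2rl2, which codes for PAR3 and lies within Iqgap2 on the opposite strand, had 0 reads in all 6 libraries, and F2rl3, which codes for PAR4, averaged 0.25 in Klf5 LKO and 0.34 in control. A count of 0 allows up to 3 reads, or between 2.24 and 3.19 normalised counts in Klf5 LKO and between 2.76 and 4.74 in control.

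Among the genes whose pattern over the 6 libraries was most like that of F2r were Mdk, Slc41a2, Serpina1c and Napb. They were ranked by the root mean square difference of log2 values centred on each gene's mean, among 10728 genes with a mean of at least 100, and the difference was 0.14 for Mdk, 0.19 for Slc41a2 and 0.22 for both Serpina1c and Napb. Mdk, which codes for the secreted growth factor midkine, had 325, 355 and 268 normalised counts in Klf5 LKO, against 153, 126 and 168 in control. A gene ranked this way must be higher in Klf5 LKO, so its direction is fixed by the ranking.

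F2r is also expressed in endothelial cells, fibroblasts and stellate cells, and in bulk RNA fewer cells of a type and less RNA per cell cannot be told apart. Of 15 stellate cell and fibroblast markers, 6 (Pdgfra, Des, Lrat, Col1a2, Col3a1 and Thy1) had 0 reads in all libraries. The pericyte marker Rgs5 had 11394, 10427 and 9157 normalised counts in Klf5 LKO, against 6917, 6959 and 6876 in control, with no overlap (limma adjusted p = 0.0592). The part of Rgs5 in the F2r values was not tested. Rgs5 entered a fit only within the joint mean of the endothelial and stellate lists, which cannot single it out. The other 14 stellate cell and fibroblast markers summed to between 35.1 and 87.9 in Klf5 LKO and between 27.6 and 79.2 in control. The 15 endothelial markers summed to 641, 640 and 700 in Klf5 LKO, against 479, 528 and 1027 in control, most of it Egfl7 and Stab1 in Klf5 LKO. The groups overlapped for 11 of the 12 tested endothelial markers. The other, the adhesion molecule Pecam1, had 0, 6.71 and 1.06 in Klf5 LKO, against 37.7, 19.0 and 34.5 in control, lower without overlap (limma adjusted p = 0.231). With the mean log2 of the endothelial and stellate lists as a term, the log2 fold change of F2r was 1.19, and with the leukocyte markers 1.22.

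**Figure D2:**
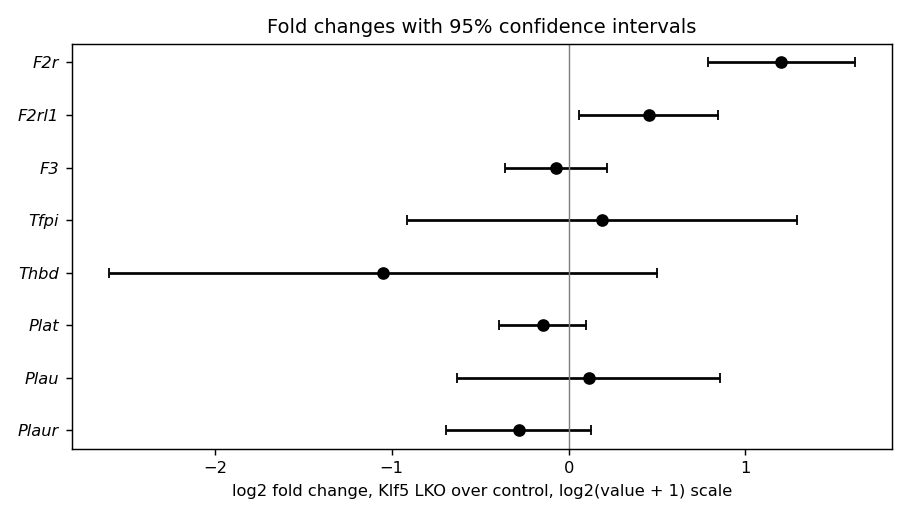
Log2 fold change of Klf5 LKO over control for each gene (points) with its 95% confidence interval (bars) from the limma fit over all genes, on the log2(value + 1) scale. F2r stands at 1.20, and the intervals are widest for Thbd, at -1.05, and Tfpi, at 0.19.

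Tissue factor, the surface protein that starts clotting, had the highest level per kilobase of the set. F3 (chromosome 3, 121723537 to 121735048, plus strand) had 6691, 4958 and 5508 normalised counts in Klf5 LKO, against 6248, 5653 and 5983 in control. The Klf5 LKO libraries spanned both sides of the control range. The log2 fold change was -0.07 (SE 0.13, interval -0.36 to 0.22).

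The brakes on clotting were far lower, with a mean over the 6 libraries of 22.4 normalised counts per kb for Tfpi and 7.99 for Thbd, against 2311 for F3. Tfpi (chromosome 2, 84432855 to 84476775, minus strand), whose product blocks the tissue factor complex, had 189, 96.1 and 85.2 normalised counts in Klf5 LKO, against 226, 80.6 and 56.9 in control. Library 1 was the highest of each group, and the log2 fold change of 0.19 had an interval from -0.91 to 1.29. The leukocyte markers were also highest in library 1 of each group, with summed counts of 2095, 512 and 407 in Klf5 LKO, against 3712, 1677 and 621 in control. Beyond library 1 the order differed, since control 2 had a higher leukocyte sum but less Tfpi than Klf5 LKO 2 and 3. Fgg, a fibrinogen chain, and Pros1, protein S, were also highest in library 1 of each group. The part of leukocyte RNA in the Tfpi values was not tested beyond a fit with these markers as a term. With the leukocyte markers as a term the log2 fold change of Tfpi was 0.83, and with the endothelial and stellate lists as a term it was -0.09.

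Thbd (chromosome 2, 148404466 to 148408188, minus strand), which codes for thrombomodulin, the thrombin-binding cofactor of vessel walls, had 9.04, 15.7 and 33.0 normalised counts in Klf5 LKO, against 24.8, 26.9 and 69.1 in control. These values rest on 11, 21 and 31 reads in Klf5 LKO, against 27, 17 and 68 in control, and the groups overlapped. The log2 fold change of -1.05 had an SE of 0.71 and an interval from -2.60 to 0.50, and it was between -1.52 and -0.59 when 1 library was left out. The mean log2 level of the 15 endothelial markers was 2.48, 3.79 and 4.24 in Klf5 LKO, against 2.77, 3.68 and 5.44 in control. Thbd was lowest where this mean was lowest, in Klf5 LKO 1, and highest where it was highest, in control 3. By summed counts the same list was lowest in control 1 (479, against 641 in Klf5 LKO 1) and highest in control 3 (1027), so the match at the low end depends on the measure. With the endothelial and stellate lists as a term the log2 fold change of Thbd was -0.77, and with the leukocyte markers as a term -1.64.

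**Figure D3:**
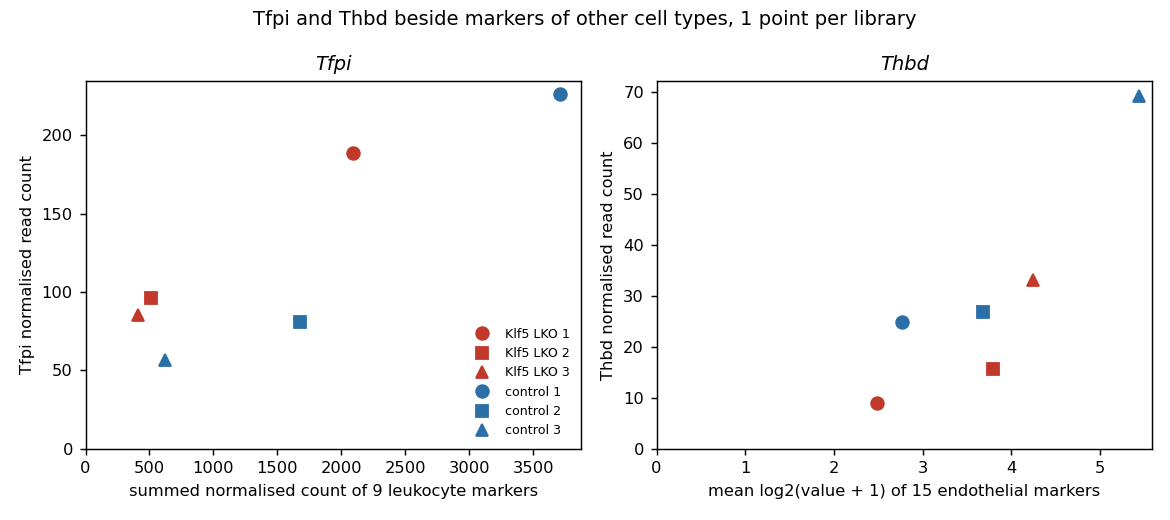
Normalised read counts of Tfpi against the summed counts of 9 leukocyte markers (left) and of Thbd against the mean log2(value + 1) of 15 endothelial markers (right), 1 point per library, Klf5 LKO in red and control in blue, axes starting at 0. Tfpi is highest in control 1 and Klf5 LKO 1, the libraries with the highest leukocyte sums, and Thbd is highest in control 3. Control 2 has a higher leukocyte sum than Klf5 LKO 2 and 3 but a lower Tfpi count. By mean log2 level of the leukocyte markers, not drawn, control 2 (7.14) stood above Klf5 LKO 1 (7.02).

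Of the plasminogen activators, Plat had the higher level, with a mean over the 6 libraries of 423 normalised counts per kb, against 74.5 for Plau. Plat (chromosome 8, 22757727 to 22782844, plus strand), tissue plasminogen activator, had 2457, 2527 and 2542 normalised counts in Klf5 LKO, against 2773, 2794 and 2762 in control. The groups did not overlap and the spread within them was small, with a coefficient of variation of 1.79% in Klf5 LKO and 0.599% in control. The difference was also small, with Klf5 LKO at 0.904 times control (log2 fold change -0.15, SE 0.11, interval -0.39 to 0.10). The fit borrows the spread of other genes of similar level, so its SE is wider than these 6 values alone would give.

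Plau (chromosome 14, 20836660 to 20843385, plus strand), urokinase, had 168, 151 and 219 normalised counts in Klf5 LKO, against 100.2, 194 and 225 in control. The ranges overlapped widely (log2 fold change 0.11, interval -0.63 to 0.86). Control 1 was the lowest library, and the other 5 lay between 151 and 225.

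Plaur (chromosome 7, 24462484 to 24475968, plus strand), the lipid-anchored receptor that holds urokinase at the cell surface, had 5648, 3080 and 4253 normalised counts in Klf5 LKO, against 5500, 5261 and 4605 in control. Klf5 LKO 2 was the lowest library and Klf5 LKO 1 the highest, so the groups overlapped. The log2 fold change was -0.28 (SE 0.19, interval -0.69 to 0.13), and -0.06 without Klf5 LKO 2. Per kb, the mean over the 6 libraries was 1805 for Plaur, against 74.5 for its ligand Plau. The ratio of their counts was 33.5, 20.5 and 19.4 in Klf5 LKO, against 54.9, 27.1 and 20.5 in control.

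The order of the levels was compared per kilobase of annotated exon. From high to low, the mean over the 6 libraries was 2311 normalised counts per kb for F3, 1805 for Plaur, 542 for F2rl1, 423 for Plat, 259 for F2r, 74.5 for Plau, 22.4 for Tfpi and 7.99 for Thbd. The ranges over libraries overlapped between F3 and Plaur, between F2rl1 and Plat, between Plat and F2r, and between Tfpi and Thbd. They did not overlap between Plaur and F2rl1, between F2r and Plau, or between Plau and Tfpi. F2r reached 361 ± 50.3 per kb in Klf5 LKO and 158 ± 33.7 in control (SD, n = 3 each), against 402 ± 7.20 in Klf5 LKO and 445 ± 2.67 in control for Plat. With the length of the longest transcript in place of all exons, 27 of the 28 pairs kept their order, and Plat and F2rl1 changed places. No other annotated gene overlaps any of the 8.

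**Figure D4:**
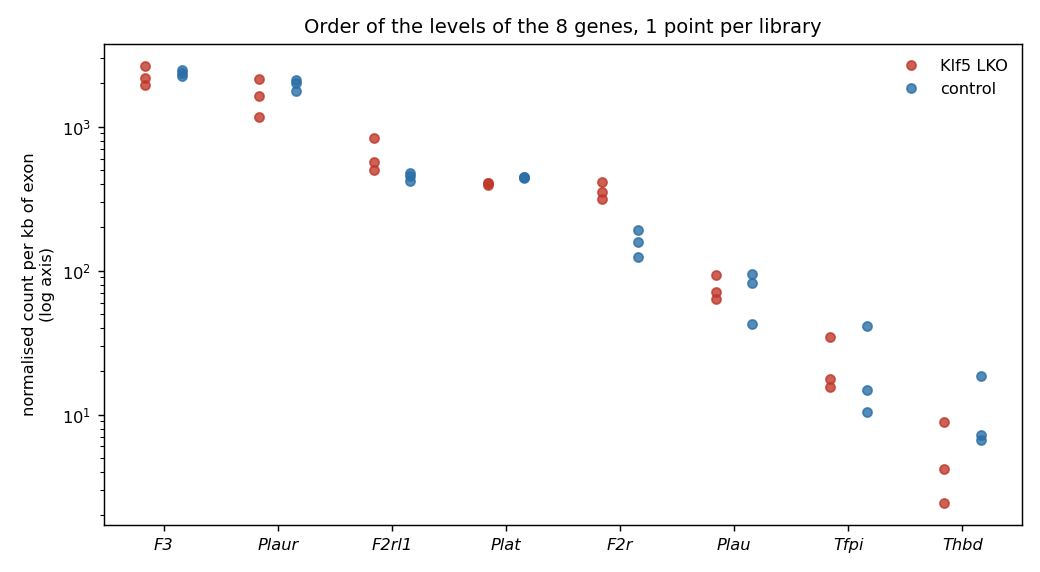
Normalised counts per kilobase of exon for each library (log axis), with the genes in the order of their mean over 6 libraries and Klf5 LKO left of control. F3 and Plaur form the top of the set, at means of 2311 and 1805 per kb, and F2r is the gene whose groups stand farthest apart.

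The other genes of these pathways were read from the same fit, in 7 lists written from what is known of the pathways. Of 96 listed genes, 95 were in the table and 71 reached the mean of 10. In limma 0 of the 71 rose, 0 fell and 71 did not pass, while 14 had an unadjusted p under 0.05, as did 10.9% of all tested genes. On the recovered reads edgeR called 0, against 0.623% of all genes, with 15 at an unadjusted p under 0.05, against 10.3% of all genes. With voom 1 was called, against 0.549% of all genes. DESeq2, run without the filter, gave an adjusted p for 75 of the listed genes and called 6 (Anxa2, Cyr61, Egr1, Ggcx, S100a10 and Serpine2), against 2.34% of all genes. The median log2 fold change was -0.03 over the 71 genes and -0.01 over all tested genes. The values of the groups did not overlap for 7 of the 71 genes as higher and 7 as lower in Klf5 LKO. Over all tested genes these shares were 7.72% and 7.88%.

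The plasmin system included a pair of genes lower in each Klf5 LKO library than in any control library. Anxa2 and S100a10 form a surface complex that binds plasminogen and tissue plasminogen activator. Anxa2 had 25526, 27932 and 26131 normalised counts in Klf5 LKO, against 43472, 40912 and 35434 in control (log2 fold change -0.59, SE 0.13, adjusted p = 0.0791 in limma). S100a10 had 1797, 2415 and 2576 in Klf5 LKO, against 4046, 3485 and 2738 in control (log2 fold change -0.60, SE 0.17, adjusted p = 0.192). Neither passed in limma. Of the 12 tested genes of this list 0 passed, with a median log2 fold change of -0.09.

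Among 10 tested anticoagulants and thrombin inhibitors, 0 passed and the median was 0.02. The highest counts were those of Gas6, a vitamin K-dependent ligand of TAM receptors, at 18606 normalised counts on average in Klf5 LKO and 19509 in control (adjusted p = 0.887), and Pros1, protein S, at 3527 in Klf5 LKO and 2985 in control (adjusted p = 0.793). Serpine2, protease nexin 1, which inhibits thrombin and urokinase, was picked after its values were seen. It had 1624, 1712 and 1447 in Klf5 LKO, against 945, 986 and 1058 in control, with no overlap (log2 fold change 0.68, SE 0.14, adjusted p = 0.0545), and it passed at a mean of at least 50, with a pseudocount of 5 and in DESeq2. Ggcx, the carboxylase that activates vitamin K-dependent clotting proteins, was also picked after its values were seen, at 414 ± 85.0 in Klf5 LKO and 686 ± 47.2 in control (adjusted p = 0.149). Serpina10, named for the same reason, had the largest fold change of this list (log2 fold change 1.55, SE 0.45, adjusted p = 0.182 in limma). It had 128, 131 and 84.1 in Klf5 LKO, against 45.1, 50.6 and 23.4 in control, with no overlap.

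The highest counts among the clotting factors were those of fibrinogen. Of 17 listed factors, 9 reached the mean of 10, and F7, F9 and F13b had 0 reads in all libraries. The fibrinogen chain Fgg averaged 4085 normalised counts in Klf5 LKO and 3584 in control (adjusted p = 0.810), and Fga 3321 in Klf5 LKO and 4154 in control (adjusted p = 0.757). Of the 9 tested factors 0 passed, with a median of 0.30. Fibrinogen and most clotting factors are made by hepatocytes, and the part of hepatocyte RNA in these values was not tested. The 14 hepatocyte markers include the fibrinogen chain Fgb. They had summed levels from 12652 to 16629 in Klf5 LKO and from 13262 to 17737 in control. Within this list Apob passed as lower in Klf5 LKO (limma adjusted p = 0.0322), while Serpina1a was higher without overlap but did not pass (adjusted p = 0.0745).

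Of 12 surface proteases and inhibitors that bear on receptor cleavage, 8 were tested and 0 passed, with a median of -0.05. St14, the membrane protease matriptase, which can cut PAR2, averaged 7493 normalised counts in Klf5 LKO and 7351 in control (adjusted p = 0.970), and its inhibitor Spint2 averaged 10544 in Klf5 LKO and 13508 in control (adjusted p = 0.398). The trypsin genes Prss1 and Prss3 had 0 reads in all libraries, and Prss2 had 3.73 normalised counts in Klf5 LKO 2 and 0 in the others. Among 18 tested proteins of receptor signalling 0 passed, with a median of 0.04. The G protein Gnai2 averaged 8314 in Klf5 LKO and 9439 in control (adjusted p = 0.699), and the GTPase Rhoa 6939 in Klf5 LKO and 8396 in control (adjusted p = 0.571).

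Genes that thrombin or receptor agonists are known to induce in cultured cells were tested as 14 of 16 listed, of which 0 passed, with a median of 0.07. The secreted matrix protein Ctgf averaged 35681 normalised counts in Klf5 LKO and 43563 in control (adjusted p = 0.610), and the adhesion molecule Vcam1 28970 in Klf5 LKO and 35110 in control (adjusted p = 0.517). The genes of this list that DESeq2 called, Cyr61 and Egr1, are named after their values were seen, and both were higher in Klf5 LKO without overlap. The matrix protein gene Cyr61 had 26019, 26033 and 41325 in Klf5 LKO, against 15335, 15929 and 21887 in control (adjusted p = 0.111 in limma). Egr1, an immediate early transcription factor, had 29216, 23671 and 31785 in Klf5 LKO, against 19648, 17431 and 21185 in control (adjusted p = 0.151 in limma).

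**Figure D5:**
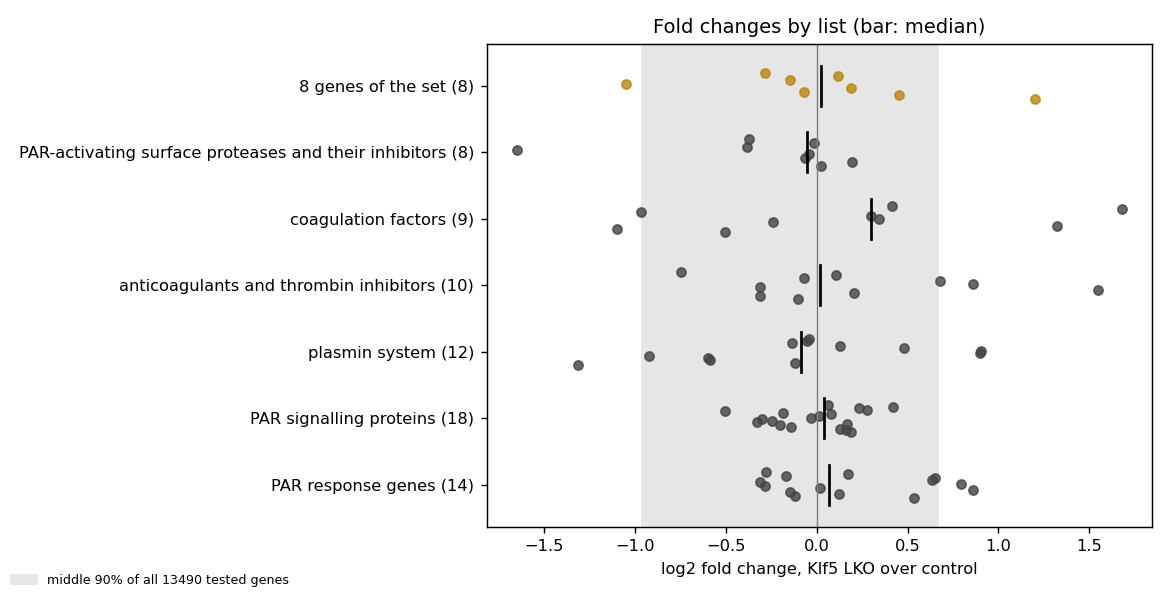
Log2 fold changes of Klf5 LKO over control for the 8 genes (top) and the tested genes of 6 pathway lists (points; bar, median; number of genes in parentheses). The grey band holds the middle 90% of the 13490 tested genes, from -0.96 to 0.67, and of the 8 genes F2r lies above it and Thbd below it.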

How the data were processed

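Single-end RNA-seq libraries started from 4 ng of total RNA, with 10 pre-amplification and 7 enrichment PCR cycles, per the labels' protocols. The submitters' processing notes name TopHat, Bowtie2, DESeq2 and the build mm10, with no role or order. How reads were counted, on which annotation and strand, and how cells were isolated is not given in the sources used here. The authors deposited a signal per gene and library: normalised counts, scaled by one size factor in each library. Dividing by what 1 read is worth gave whole reads for 100% of values (tolerance 0.001). The authors' deposited comparison table holds mean signal, log2 fold changes with standard errors, a Wald score, and p-values; its log2 fold changes appear shrunken, judged from the values.

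The design foresaw edgeR for counts and limma for normalised values, and limma was used. limma 3.58.1 (R 4.3.3, eBayes with trend) was fitted to log2(value + 1) for genes with a mean of at least 10, two-sided, with Benjamini-Hochberg adjustment over all tested genes and a threshold of 0.05. Fold changes are on this scale, which understates those of low genes. DESeq2 1.42.0, the edgeR 4.0.16 quasi-likelihood test and voom on the recovered reads were alternatives, with other scalings, filters, pseudocounts, terms, a replicate block and each library left out. The fit was tried on simulated counts with planted changes and the same dispersion for every gene. These libraries differ from that setting, so the trial does not bear on the calls made here. Positions and lengths are from GENCODE M21 (GRCm38).

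The genes and lists were chosen with earlier results of these data known. Named beside the 8 are Klf5, the 2 genes with the highest mean of each list where none passed, the 5 genes most like F2r, of which 1 is not reported here, and the neighbours of the receptors. Serpine2, Ggcx, Serpina10, Cyr61, Egr1, Fgb, Thbs1 and the cell type markers given by name were chosen after their values were seen. The limit of 3 reads covers counting error only, since PCR copies cannot be told from separate molecules here.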

Additional observations from a re-analysis of the deposited data

How the results depend on the processing

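The number of genes past the threshold over all genes was 88, against 346 with DESeq2, and between 14 (without control 2) and 105 (without Klf5 LKO 1) when 1 library was left out. Without Klf5 LKO 3, control 1 and control 3 it was 49, 24 and 53. Of the 8 genes, F2r passed with all libraries under the 12 other settings, and between 0 and 1 of the 8 passed when 1 library was left out. Of the pathway genes 0 passed in limma. In other settings 1 passed at a mean of at least 50 (Serpine2), 1 with a pseudocount of 5 (Serpine2), 1 with voom (Anxa2), 6 with DESeq2, 1 with the leukocyte term (Fgb) and 1 with the stromal term (Cyr61). The cause was not tested. The log2 fold change of F2r stayed between 1.04 and 1.35 when 1 library was left out, that of F2rl1 between 0.24 and 0.61, and that of Plat between -0.16 and -0.13. Those of Tfpi (-0.22 to 0.76), Plau (-0.24 to 0.34) and F3 (-0.19 to 0.03) changed sign. Over the settings that kept all libraries, Tfpi lay between -0.09 and 0.83 and Thbd between -1.64 and -0.77. Thbd has no value at a mean of at least 50.

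Samples of the 2 groups share replicate numbers, but same-numbered libraries did not deviate together in every pair (correlations over genes of 0.185, -0.01 and 0.106), and Klf5 LKO 2 correlated best with control 3, so the numbers were not taken as pairs. With the replicate block, 110 genes passed, of which 1 of the 8 (F2r) and 2 pathway genes (Cyr61 and Thbs1). Depth limits Thbd most, whose counts rest on at most 68 reads in a library.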
